A study of Homo sapiens with 43 samples.

Results

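The genes described here code for the subunits of the mitochondrial respiratory chain and of ATP synthase, the enzymes that carry out oxidative phosphorylation. They were chosen by name, as the protein-coding genes whose current symbol begins like a subunit of complex I (NDUFA, NDUFB, NDUFC, NDUFS, NDUFV), complex II (SDHA to SDHD), complex III (UQCR, CYC1), complex IV (COX4 to COX8) or ATP synthase (ATP5F1, ATP5M, ATP5P), together with the mitochondrially encoded MT-ND, MT-CYB, MT-CO and MT-ATP genes. This gave 95 of the 20052 genes in the count table, of which 13 are encoded in mitochondrial DNA and 82 in the nucleus. All 95 passed the filter on low counts. Complex I had 43 members, complex II 4, complex III 11, complex IV 17 (NDUFA4 and NDUFA4L2 counted there) and ATP synthase, also called complex V, 20. A further 36 genes that fit the symbol pattern were not protein-coding and were left out.

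HMC3 is an immortalised human cell line sold as microglia, the macrophages that reside in brain tissue. Flasks of a single passage received dexamethasone at 1 or 0.01 µM, hydrocortisone at 10 or 0.01 µM, the ethanol vehicle matched to each of these doses, or medium alone, for 3 days. Day 3 cells were taken at the end of exposure, and day 6 cells after reseeding and 3 more days in plain medium. The 43 libraries of total RNA formed 17 groups, namely 3 libraries for each hormone dose on each day, 3 for each vehicle and for untreated medium on day 3, and 1 for each vehicle on day 6. The replicates are flasks of 1 cell line, so p-values measure the spread between flasks.

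Electrons from NADH enter the chain at complex I and those from succinate at complex II. Ubiquinone carries them to complex III and cytochrome c to complex IV, which reduces oxygen, and the proton gradient built on the way drives ATP synthase. Complexes I, III, IV and V combine core subunits translated inside the organelle from mitochondrial DNA with subunits imported from the cytosol, whereas every subunit of complex II is nuclear encoded. Dexamethasone and hydrocortisone both act on the glucocorticoid receptor (NR3C1), a ligand-activated transcription factor. Dexamethasone is the synthetic one and carries a fluorine atom, a methyl group and a double bond that hydrocortisone lacks.

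Libraries held 7638840 to 24426600 counts. Nuclear ribosomal RNA genes took 9.90% to 94.9% of them (median 29.3%), and 7 libraries were above 75%, which left 1083395 to 17542023 other counts per library. Of 10 microglia markers 4 were in the table and 1, MERTK, had a median above 1 CPM (counts per 10 to the power of 6 non-ribosomal counts), while CSF1R stood at 0.273, TREM2 at 0.248 and CD68 at 0.112 CPM. Of the fibroblast and pericyte markers 6 of 8 were above 1 CPM, with COL1A1 at 1678 and VIM at 1629 CPM, and the same held for 2 of 4 astrocyte, 1 of 4 neuron, 2 of 4 oligodendrocyte and 0 of 4 endothelial markers. The known receptor targets TSC22D3 and FKBP5 were higher by 3.99 ± 0.27 and 1.44 ± 0.13 log2 units (estimate ± SE) under 1 µM dexamethasone on day 3, and by 3.05 ± 0.26 and 1.23 ± 0.13 under 0.01 µM dexamethasone. Under 10 µM hydrocortisone they were higher by 3.26 ± 0.27 and 1.22 ± 0.13, whereas under 0.01 µM hydrocortisone the estimates were 0.11 ± 0.24 and -0.11 ± 0.13 (edgeR quasi-likelihood test, adjusted p = 1.00 for both).

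Levels were compared between members as CPM of the non-ribosomal counts per kilobase of principal transcript, taking each member's median over the 43 libraries. The mitochondrially encoded subunits of complex IV stood highest, with MT-CO3, MT-CO1 and MT-CO2, the catalytic core that holds the haem and copper centres, between 537 and 983 per kilobase. The mitochondrially encoded subunits of complex I, which build its proton-pumping membrane arm, had a median of 117 per kilobase over 7 members. MT-ND3 was the highest of those at 297 and MT-ND6, the only member read from the other strand of the mitochondrial genome, the lowest at 7.81. MT-CYB, the cytochrome b of complex III, stood at 74.2. MT-ATP6, the proton channel subunit of ATP synthase, stood at 214, and MT-ATP8, which anchors its stalk, at 120 per kilobase.

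The nuclear members had a median of 42.4 per kilobase, against 124 for the mitochondrial ones. By complex the nuclear medians were 34.5 in complex I, 28.1 in complex II, 57.7 in complex III, 51.3 in complex IV and 55.6 in ATP synthase. ATP5F1B, the catalytic beta subunit of ATP synthase, was the highest nuclear member at 302 per kilobase, followed by COX8A at 208. The lowest were COX6B2, ATP5MGL, NDUFA4L2, NDUFA7 and NDUFV2, between 0.200 and 1.27 per kilobase. NDUFV2 is a core iron-sulfur subunit and its low value is uncertain, since 82.9% of its principal transcript is shared on the same strand with another annotated gene, as is 75.9% of NDUFA7. In all, 45 members shared at least 1 transcript base with another gene and 6 shared over 50% (NDUFB2, NDUFV2, NDUFA7, NDUFB8, ATP5PO and NDUFA11), so reads there may have been lost or assigned elsewhere. The levels set per kilobase depend on the transcript chosen: over the union of all annotated exons the nuclear median was 21.4 per kilobase, and the order of the 2 genomes was the same.

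**Figure D1:**
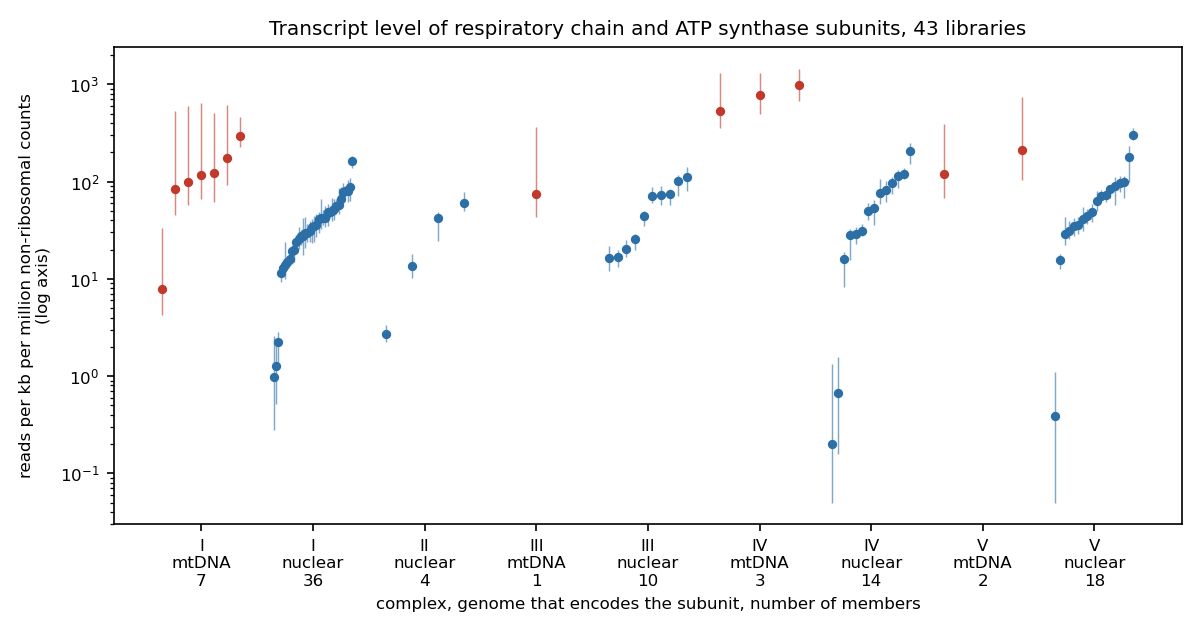
Transcript level of the 95 members by complex and encoding genome, as CPM of the non-ribosomal counts per kilobase on a log axis. Points are medians and lines the range over 43 libraries, with ranges that reach below 0.05 drawn to 0.05; the mitochondrially encoded complex IV subunits stand highest, between 537 and 983.

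Several members have a tissue-restricted or paralogous relative. COX6B1 had 76.3 CPM of the non-ribosomal counts and its testis form COX6B2 0.416 CPM. NDUFA4 had 33.9 CPM and its hypoxia-linked relative NDUFA4L2 0.785 CPM. COX4I1 (105 CPM), COX6A1 (55.4), COX7A2 (48.7) and COX8A (105) were measured, and their tissue-restricted partners COX4I2, COX6A2, COX7A1 and COX8C were not analysed here. The identical membrane-ring subunit c of ATP synthase is made from 3 genes that differ in their targeting peptides, and ATP5MC2 had 139 CPM, ATP5MC3 85.5 and ATP5MC1 55.6. UQCRH, the hinge protein of complex III, had 67.2 CPM and its near-identical intronless copy UQCRHL 35.3, and reads may have been split between the 2.

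Several mitochondrial transcripts overlap, which matters when single members are read. MT-ATP8 (chrM:8366-8572, plus strand) and MT-ATP6 (chrM:8527-9207, plus strand) are read from 1 messenger RNA in different frames and share 46 bases, and MT-ND4L (chrM:10470-10766) and MT-ND4 (chrM:10760-12137) share 7. Reads over such bases belong to both genes. The shared stretch of MT-ATP8 and MT-ATP6, from the GENCODE v29 transcripts on GRCh38, is shown because it makes up part of both open reading frames, with the start codon of MT-ATP6 as its opening bases.

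MT-ATP8 and MT-ATP6 overlap, chrM:8527-8572: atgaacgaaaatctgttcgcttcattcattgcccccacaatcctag

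Nuclear copies of mitochondrial DNA also drew reads. The pseudogene MTND2P28 held a median of 29.6% of the summed counts of itself and MT-ND2. The same share was 18.65% for MTATP6P1 with MT-ATP6, 17.4% for MTCO1P12 with MT-CO1 and 6.83% for MTND1P23 with MT-ND1. It was 2.05% for MTCO3P12 with MT-CO3 and 1.115% for MTCO2P12 with MT-CO2. Between libraries the shares ran from 23.8% to 33.2% for MT-ND2, from 16.37% to 20.86% for MT-ATP6, from 15.45% to 18.85% for MT-CO1 and from 4.19% to 8.23% for MT-ND1. The 2 mitochondrial ribosomal RNAs, which were not members, made up 8.24% to 16.02% of the non-ribosomal counts.

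Together the 13 mitochondrial members took 0.220% to 0.807% of the non-ribosomal counts (median 0.333%) and the 82 nuclear members 0.461% to 0.592% (median 0.539%). The ratio of mitochondrial to nuclear counts lay between 0.384 and 1.63. The mitochondrial members thus varied more from library to library. The highest library exceeded the lowest by a median of 7.11-fold over the 13 mitochondrial members and 1.57-fold over the 82 nuclear ones. The spread was unequal among the mitochondrial members, at about 2-fold for MT-ND3 and 2.63-fold in the median of the 3 complex IV subunits, against 8.16-fold in the median of the 7 complex I subunits.

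**Figure D2:**
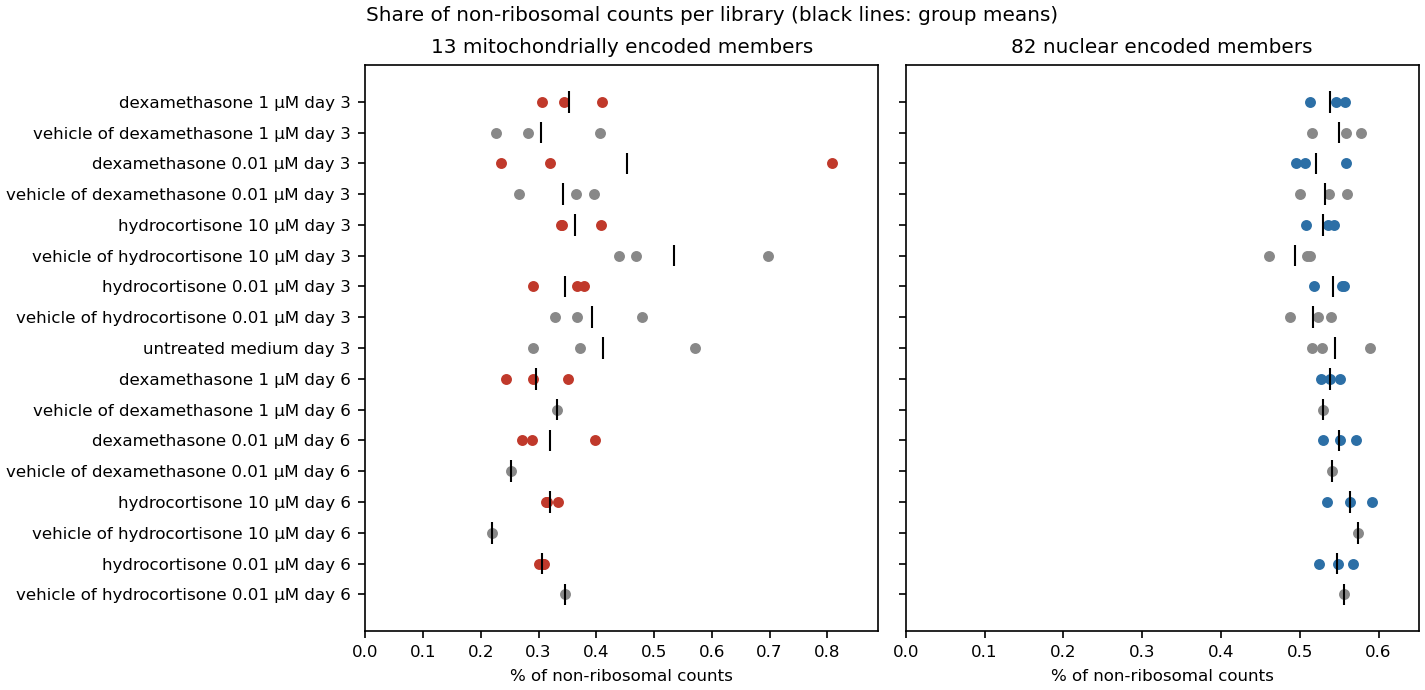
Share of the non-ribosomal counts taken by the 13 mitochondrially encoded members (left) and the 82 nuclear encoded members (right), with 1 point for each of 43 libraries, hormone groups coloured, vehicles and medium grey. Nuclear shares lie between 0.461% and 0.592%, whereas mitochondrial shares run from 0.220% to 0.807%.

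The 2 libraries richest in nuclear ribosomal RNA had the highest mitochondrial shares. The ratio of mitochondrial to nuclear members was 1.63 in the library of 0.01 µM dexamethasone replicate 3 on day 3, with 94.9% ribosomal RNA, and 1.37 in vehicle replicate 1 of 10 µM hydrocortisone on day 3, with 91.4%. It was 1.11 in untreated medium replicate 3, with 77.9%, but 0.679 in vehicle replicate 1 of 0.01 µM dexamethasone, with 82.5%. In a fit added after this was seen, with the ribosomal RNA share as a covariate beside the 17 groups, 753 of 16816 genes (4.48%) moved with the share, 2.03% higher and 2.44% lower. Among the members 12 of 13 mitochondrial ones were higher with a higher share, and of 82 nuclear ones 3 were higher and 11 lower. MT-ND5 was higher by 0.25 ± 0.03 log2 units per 10 percentage points (edgeR, adjusted p = 8.85e-07), whereas MT-CO1 was higher by 0.06 ± 0.02 (adjusted p = 0.036) and MT-ND3 had 0.04 ± 0.02 (adjusted p = 0.232). Among nuclear members SDHD, a membrane anchor of complex II, was lower, with -0.05 ± 0.01 log2 units per 10 percentage points (adjusted p = 6.73e-04). Without the 7 libraries above 75% the median slope of the mitochondrial members was 0.15, against 0.18 with them, and 3 mitochondrial members passed, where 0.339% of all genes did. Without 0.01 µM dexamethasone replicate 3 of day 3 alone, 10 mitochondrial and 4 nuclear members passed, where 1.18% of all genes did.

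**Figure D3:**
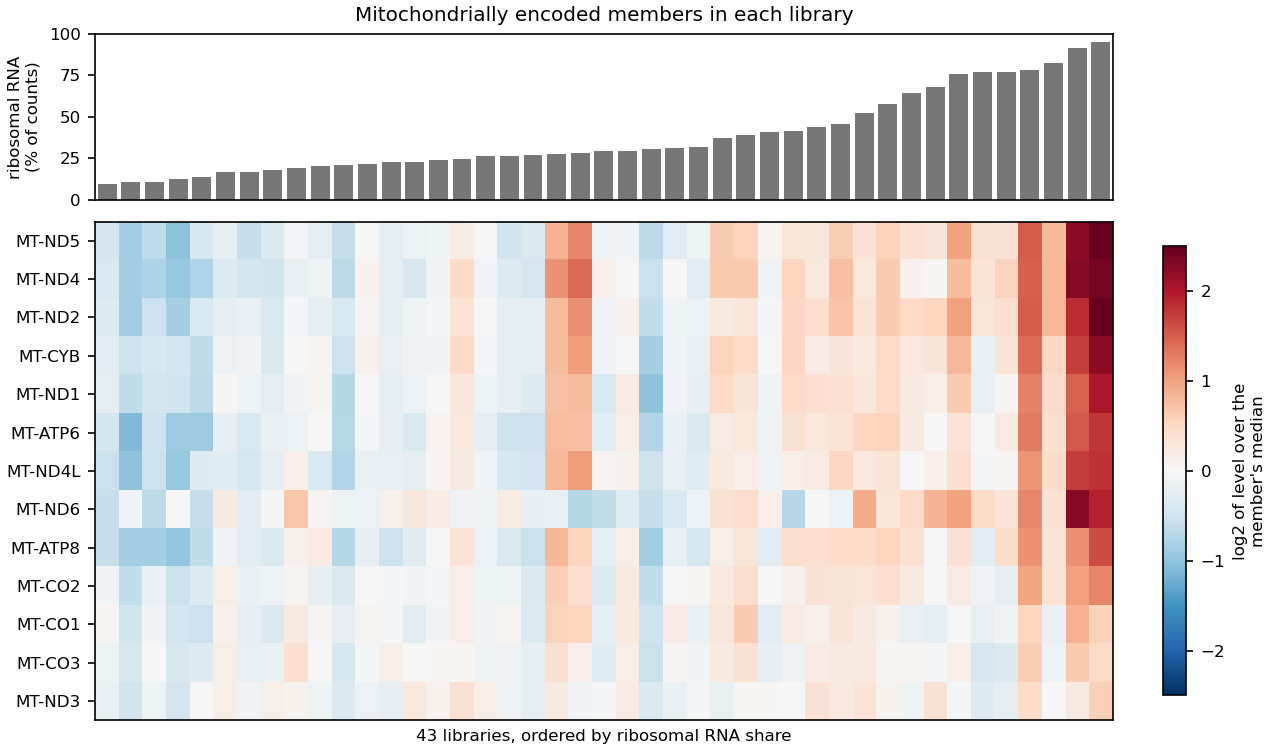
Nuclear ribosomal RNA as a percentage of all counts in each of 43 libraries (top), and the log2 level of each mitochondrially encoded member over its own median across libraries (bottom, colour), with libraries in the same order. The libraries at 91.4% and 94.9% are the reddest for most complex I members, the very highest of which lie past the end of the colour scale, and MT-ND3, MT-CO3 and MT-CO1 vary least.

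The first comparison asked which members differed after 3 days of 1 µM dexamethasone, against 3 flasks of its own vehicle. Of the nuclear encoded subunits 7 of 18 in ATP synthase and 3 of 10 in complex III were called lower, by 0.22 to 0.58 log2 units. UQCRH and its near-identical copy UQCRHL, which may share reads, were among the latter. The flavoprotein SDHA of complex II was higher, while no mitochondrially encoded member passed. Of the 95 members 15 were called at an adjusted p below 0.05 (1 higher, 14 lower, 15.8%), and of all 16816 genes tested 3804 were (22.6%, with 10.3% higher and 12.3% lower). The members' share of calls was thus not above that of all genes, and for lower calls it was 14 of 95 beside 12.3% of all genes. The 82 nuclear members had a median of -0.12 on the log2 scale with 61 estimates below 0, against a median of 0.02 over all genes. By complex, lower calls were 1 of 36 nuclear members in complex I, 1 of 4 in complex II, 3 of 10 in complex III, 2 of 14 in complex IV and 7 of 18 in ATP synthase.

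Single values are given as CPM of the scaled library (TMM, the trimmed mean of M-values). ATP5F1B, the catalytic beta subunit, had 267, 288 and 277 CPM under 1 µM dexamethasone and 308, 350 and 342 CPM in its vehicle. All 3 hormone flasks were below all 3 vehicle flasks, and the change was -0.26 ± 0.07 log2 units (edgeR, adjusted p = 0.00208). ATP5PB, subunit b of the peripheral stalk, had 54.7, 56.3 and 48.7 CPM against 63.0, 72.4 and 67.7 CPM in vehicle, again without overlap (-0.35 ± 0.08, edgeR adjusted p = 0.0011). ATP5MC1, the first of the 3 genes for the c-ring, had 24.9, 23.1 and 26.8 CPM against 32.7, 35.01 and 33.1 CPM in vehicle. Its groups did not overlap either, and the change of -0.43 ± 0.10 (edgeR, adjusted p = 8.83e-04) was the largest of the called ATP synthase subunits.

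The other called subunits of ATP synthase were ATP5MC2 (-0.24 ± 0.08, edgeR adjusted p = 0.0153), the alpha subunit ATP5F1A (-0.27 ± 0.08, 0.0154), the membrane subunit ATP5MF (-0.33 ± 0.11, 0.0278) and the central-stalk gamma subunit ATP5F1C (-0.22 ± 0.08, 0.0348). Of the ATP5MF transcript 46.2% is shared on the same strand with other annotated genes. The third c-ring gene, ATP5MC3, did not pass, with -0.14 (adjusted p = 0.339). ATP5PO, the stalk subunit that confers oligomycin sensitivity, stood at 0.00 (adjusted p = 0.999), and of its transcript 70.3% is shared with another gene. Of the 18 nuclear members of ATP synthase 11 did not pass.

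In complex III, UQCRH had 29.1, 33.9 and 25.1 CPM under 1 µM dexamethasone and 37.4, 45.7 and 43.3 CPM in vehicle. The groups did not overlap (-0.52 ± 0.11, edgeR adjusted p = 1.86e-04), and its copy UQCRHL was likewise lower (-0.58 ± 0.15, 0.00389), but the 2 may share reads and are not independent. UQCRC2, a core subunit of the complex's matrix part, had 58.4, 58.3 and 52.3 CPM against 63.2, 69.7 and 68.2 CPM in vehicle, without overlap (-0.25 ± 0.07, 0.00596). Its partner UQCRC1 had 87.1 ± 3.23 CPM against 79.5 ± 5.39 CPM in vehicle (SD, n = 3 each) and did not pass (0.13, edgeR adjusted p = 0.300).

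In complex IV, COX7B, a small subunit of the enzyme, had 35.3, 36.8 and 36.5 CPM against 42.4, 44.2 and 44.3 CPM in vehicle. COX7A2L, which links complexes III and IV into a supercomplex, had 41.4, 41.7 and 39.0 CPM against 50.5, 50.4 and 49.7 CPM. Neither overlapped, and the changes were -0.27 ± 0.07 (edgeR, adjusted p = 0.00439) and -0.30 ± 0.10 (0.0204).

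Complex II, the succinate dehydrogenase, had a call in each direction. SDHA, the flavoprotein that oxidises succinate, had 22.2, 19.7 and 21.4 CPM under 1 µM dexamethasone and 15.6, 19.4 and 15.6 CPM in vehicle. It was higher by 0.32 ± 0.10 (edgeR, adjusted p = 0.0172), although the lowest hormone flask stood just above the highest vehicle flask. SDHB, its iron-sulfur partner, had 33.6 ± 1.56 CPM against 39.4 ± 3.27 CPM in vehicle (SD, n = 3 each) and was lower (-0.23 ± 0.08, edgeR adjusted p = 0.0369). Reads of SDHA may be shared with its pseudogenes.

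Over the members, the 3 hormone and 3 vehicle libraries did not overlap for 31 (4 higher, 27 lower), that is 14 of the 15 called and 17 others, where 38.3% of all genes did not overlap. Leaving out single libraries gave 7 to 14 calls. The fewest came without replicate 4 of 1 µM dexamethasone, which had 76.1% ribosomal RNA, and 9 came without vehicle replicate 2. ATP5F1B, ATP5PB, ATP5MC1 and UQCRH passed under each of the 17 other settings tried, whereas ATP5F1C passed under 7 of them. With untreated medium in place of the vehicle 8 members were called (1 higher, 7 lower), all of them among the 15, where 21.8% of all genes were called. With only the 6 libraries of the comparison in the fit 22 were called, MT-ND6 among them, where 28.9% of all genes tested were. In the same comparison 3 of 7 tested fibroblast and pericyte markers were higher and 2 lower, 1 of 2 astrocyte markers was higher and 1 lower, and 0 of 3 microglia, 0 of 1 neuron, 0 of 3 oligodendrocyte and 0 of 1 endothelial markers passed. Their part in the members' values was not tested.

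**Figure D4:**
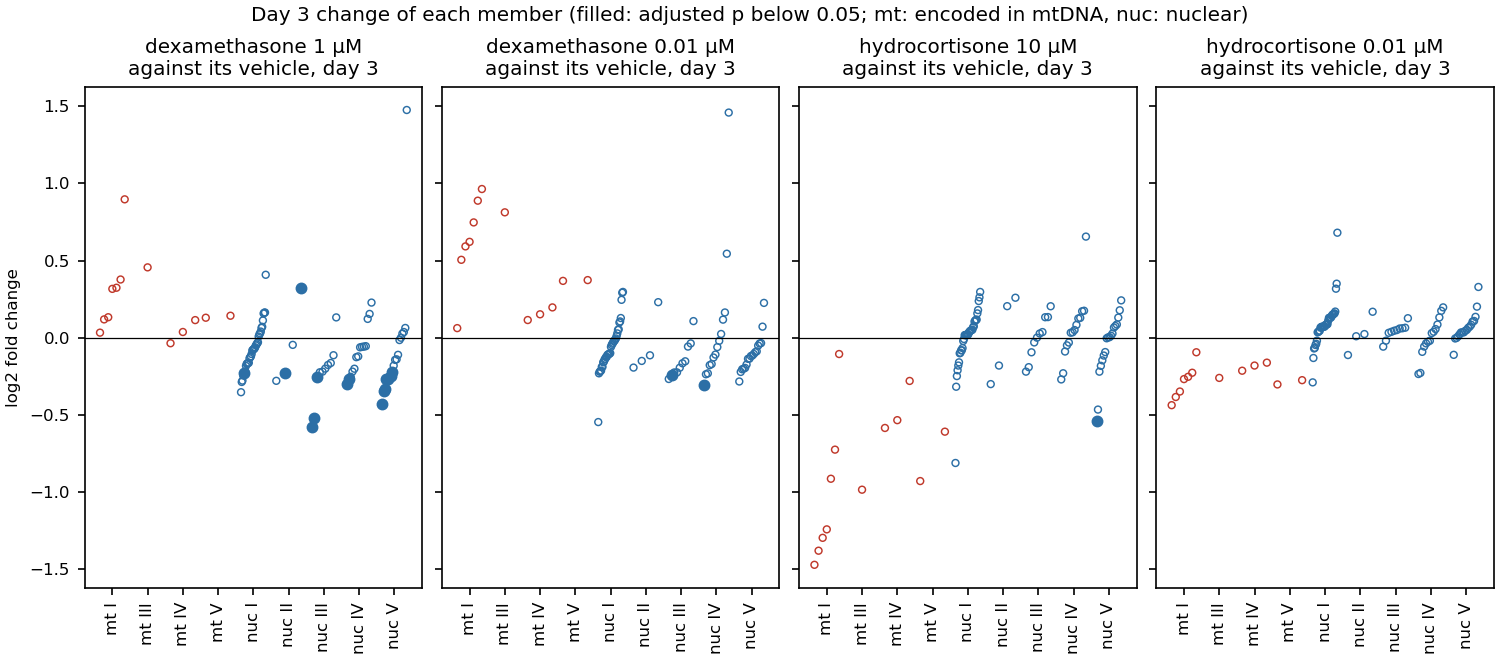
Log2 fold change of each of the 95 members on day 3 in the 4 hormone comparisons, each hormone against its own vehicle, grouped by encoding genome (mt, mitochondrial, red; nuc, nuclear, blue) and complex, with filled points at an adjusted p below 0.05. There are 15 filled points under 1 µM dexamethasone, 2 under 0.01 µM dexamethasone, 1 under 10 µM hydrocortisone and 0 under 0.01 µM hydrocortisone.

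The sequences before the transcription start are shown for 5 nuclear members called in that comparison, SDHA as the one that was higher and 4 that were lower, so that their promoters can be set side by side. They are the 250 bases upstream of the RefSeq gene start on GRCh38.p14, 5′ to 3′ on the gene's strand, and GENCODE v29 places transcript starts inside or upstream of these windows too. Capitals mark the inner letters of the NRF1 motif (CGCATGCG), the ETS core (CCGGAAG) and the CCAAT box, each searched on both strands.

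SDHA, chr5:218070-218319, plus strand: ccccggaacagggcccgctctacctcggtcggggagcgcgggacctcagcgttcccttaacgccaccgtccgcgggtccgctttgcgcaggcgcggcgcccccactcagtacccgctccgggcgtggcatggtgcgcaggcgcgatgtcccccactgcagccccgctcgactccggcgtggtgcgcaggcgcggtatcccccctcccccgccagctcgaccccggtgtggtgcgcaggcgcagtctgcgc

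SDHB, chr1:17054033-17054282, minus strand: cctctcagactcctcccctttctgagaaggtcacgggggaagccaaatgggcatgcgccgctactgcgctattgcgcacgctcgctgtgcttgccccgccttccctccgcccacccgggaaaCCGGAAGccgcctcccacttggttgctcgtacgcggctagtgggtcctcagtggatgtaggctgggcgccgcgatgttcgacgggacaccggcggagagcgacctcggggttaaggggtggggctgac

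ATP5MC1, chr17:48892537-48892786, plus strand: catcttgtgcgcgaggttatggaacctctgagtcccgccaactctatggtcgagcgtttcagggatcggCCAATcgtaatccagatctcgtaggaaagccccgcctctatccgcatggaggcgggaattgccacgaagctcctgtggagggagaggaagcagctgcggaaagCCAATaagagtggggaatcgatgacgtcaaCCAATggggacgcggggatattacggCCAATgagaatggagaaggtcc

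ATP5MC2, chr12:53676084-53676333, minus strand: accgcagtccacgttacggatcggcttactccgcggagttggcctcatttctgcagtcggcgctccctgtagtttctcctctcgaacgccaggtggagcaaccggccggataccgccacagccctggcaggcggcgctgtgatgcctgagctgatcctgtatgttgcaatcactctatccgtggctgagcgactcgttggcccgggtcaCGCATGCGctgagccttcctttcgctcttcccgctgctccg

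ATP5F1C, chr10:7787927-7788176, plus strand: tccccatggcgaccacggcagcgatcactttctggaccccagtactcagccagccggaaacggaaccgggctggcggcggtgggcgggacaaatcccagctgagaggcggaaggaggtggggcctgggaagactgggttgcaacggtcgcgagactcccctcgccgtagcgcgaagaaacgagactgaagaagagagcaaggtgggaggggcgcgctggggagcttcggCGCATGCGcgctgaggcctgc

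NRF1 and GABPA, which binds ETS cores, are known as activators of respiratory chain genes. A promoter was found by symbol for 65 of the 82 nuclear members. The inner NRF1 letters, which lie within the longer NRF1 core, were in 9 of them (13.85%), against 1.86% of 27305 promoters and 3.28% of the 10904 of protein-coding genes in the count table. The ETS core was in 17 (26.15%), against 8.82% and 15.52%, and the CCAAT box in 21 (32.31%), against 33.04% and 34.95%. The full palindromic glucocorticoid response element was in 0 of the 65 windows, as in 0% of all promoters and 0% of those of protein-coding genes, and its shorter arm AGAACA in 6 (9.23%), against 12.44% and 7.43%. Of the 5 promoters shown, ATP5MC2 and ATP5F1C hold the NRF1 letters 41 and 21 bases before the start, SDHB holds an ETS core 128 bases before it, ATP5MC1 holds 4 CCAAT boxes, and SDHA holds none of these. Not shown are ATP5PB, COX7B and ATP5F1A, which were called lower and likewise hold none of these. UQCRH, also lower, holds an ETS core and a CCAAT box, and UQCRC2 and COX7A2L hold a CCAAT box. Among the promoters shown, which were chosen after the values were seen, each lower call thus holds a motif and SDHA does not. The lower calls ATP5PB, COX7B and ATP5F1A share the lack of a motif with SDHA. With SDHA as the only higher call, the motifs cannot show whether higher and lower calls differ. A match is a description of the letters and not evidence of binding.

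No mitochondrially encoded member passed under 1 µM dexamethasone. MT-CO1 had 573 CPM on average against 587 CPM in vehicle, and MT-ND5 had 103, 74.2 and 165 CPM against 126, 62.4 and 86.5 CPM, so that their groups overlapped. The 13 estimates ran from -0.04 to 0.90 with a median of 0.13, and 0 passed in edgeR, 0 had an unadjusted p under 0.05, and DESeq2 called 0. The typical 95% interval reached 0.94 log2 units to either side for a mitochondrial member and 0.22 for a nuclear one. Changes of the size seen in the nuclear members were thus not detectable in a typical mitochondrial member. MT-ND3 and the complex IV subunits varied less between libraries, and for them this need not hold. The mean ribosomal RNA share was 55.7% in the hormone libraries and 33.6% in the vehicle ones, and with that share as a covariate the mitochondrial median was -0.16 and 14 members were called, 12 of them among the 15. Of the 15, ATP5MC1, COX7A2L and ATP5PB were also lower with a higher share within groups (-0.03, -0.03 and -0.02 log2 units per 10 percentage points). The part of that share in their changes was not tested beyond the covariate fit.

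At 0.01 µM dexamethasone on day 3, 2 of the 95 members were called, both lower (2.11%, against 14% of all genes and 7.84% in the lower direction). UQCRC2 had 55.0, 56.7 and 52.0 CPM under the hormone and 67.7, 58.7 and 66.8 CPM in its vehicle, without overlap (-0.24 ± 0.07, edgeR adjusted p = 0.0144). COX7A2L had 42.6, 43.1 and 25.5 CPM against 42.4, 45.9 and 49.7 CPM in vehicle, with overlapping groups and the low value in replicate 3, the library with 94.9% ribosomal RNA (-0.31 ± 0.10, edgeR adjusted p = 0.0267). Without that library neither passed (UQCRC2 -0.21, edgeR adjusted p = 0.0774, and COX7A2L -0.10, 0.463), and 2 others were called, ATP5F1D and the complex I core subunit NDUFS1. The nuclear median was -0.11, with 63 of 82 estimates below 0.

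The count at this dose depended on the vehicle libraries it was set against. Against all 12 day 3 vehicle libraries 13 members were called, where 21.6% of all genes were, and against untreated medium 11, where 15.6% were. ATP5PB, for example, had 53.4, 54.8 and 48.6 CPM under 0.01 µM dexamethasone, against 48.7 to 56.3 CPM at the higher dose, while its own vehicle had 55.2, 60.7 and 66.8 CPM (-0.22 ± 0.08, edgeR adjusted p = 0.0599). All 13 mitochondrial estimates were above 0, with a median of 0.50, and 0 passed in edgeR, 0 had an unadjusted p under 0.05, and DESeq2 called 0. MT-ND5 had 82.8, 45.1 and 517 CPM against 144, 122 and 63.8 CPM in vehicle, so replicate 3 alone stood above the vehicle range, and without it the mitochondrial median was -0.62.

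The doses of dexamethasone were compared after subtraction of each dose's vehicle. In the test of the difference itself 0 of 95 members passed in edgeR (0.0476% of all genes did), 4 had an unadjusted p under 0.05 and DESeq2 called 0. For ATP5PB the effect at 1 µM minus that at 0.01 µM was -0.13, with a 95% interval of -0.36 to 0.10, and for UQCRC2 it was -0.01 (-0.21 to 0.19). For UQCRH it was -0.33 (-0.63 to -0.03), with an adjusted p of 0.709 in edgeR.

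At 10 µM hydrocortisone on day 3, 1 of the 95 members was called (1.05%, against 13.1% of all genes). ATP5F1D, the delta subunit of the ATP synthase rotor, had 13.9, 14.3 and 11.2 CPM under the hormone and 23.1, 17.8 and 16.3 CPM in vehicle. The groups did not overlap (-0.54 ± 0.14, edgeR adjusted p = 0.00823), and the highest vehicle value came from replicate 1, the library with 91.4% ribosomal RNA. ATP5F1D was one of the 3 nuclear members that were higher with a higher ribosomal RNA share. Without replicate 4 of the hormone group 0 members were called, and without vehicle replicate 1 likewise 0. Against all 12 vehicle libraries 8 members were called, where 24.2% of all genes were, and against untreated medium 7, where 17.3% were. ATP5F1D itself passed under 14 of the 17 other settings tried, with estimates from -0.64 to -0.15. In untreated medium it had 15.2, 14.69 and 13.63 CPM, which overlapped the hormone flasks.

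The nuclear members had a median of 0.02 with 50 of 82 estimates above 0. ATP5PB had 55.7 ± 3.16 CPM against 55.8 ± 3.62 CPM in vehicle, and UQCRC2 had 55.9 ± 1.53 CPM against 57.1 ± 5.85 CPM (SD, n = 3 each). The hormone flasks had 53.0 to 59.2 CPM of ATP5PB against 53.7 to 60.01 CPM in their vehicle, so the groups overlapped. In untreated medium ATP5PB had 66.3, 59.8 and 59.5 CPM and UQCRC2 66.2, 70.3 and 66.2 CPM.

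The mitochondrial members had their lowest estimates here. All 13 were below 0, from -1.47 for MT-ND4 to -0.11 for MT-ND3, with a median of -0.91, but 0 passed in edgeR (the smallest adjusted p was 0.0783, for MT-ND4L), 6 had an unadjusted p under 0.05, and DESeq2 called 0. MT-ND4L was called without vehicle replicate 2, and MT-CO1 with only the 6 libraries of the comparison in the fit. MT-CO1 had 781, 690 and 654 CPM against 1160, 994 and 922 CPM in vehicle, without overlap (-0.53 ± 0.22, edgeR adjusted p = 0.122). MT-ND5 had 128, 70.8 and 70.0 CPM against 386, 121 and 192 CPM in vehicle, and these groups overlapped. The mitochondrial small ribosomal RNA, MT-RNR1, gave -1.08 ± 0.37 (adjusted p = 0.051) and the large one, MT-RNR2, -0.14 ± 0.16 (0.631).

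These estimates moved with the vehicle libraries. The ribosomal RNA share averaged 24.9% in the hormone libraries and 53.1% in the vehicle ones, and with it as a covariate the mitochondrial median was -0.32. Against all 12 vehicle libraries the median was -0.24. The vehicle of 10 µM hydrocortisone had a ratio of mitochondrial to nuclear counts of 1.08 ± 0.261, the highest of all groups, against 0.768 ± 0.312 in untreated medium (SD, n = 3 each). The part of the ribosomal RNA share in the result beyond that covariate was not tested.

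At 0.01 µM hydrocortisone on day 3, 0 of 95 members and 0% of all 16816 genes were called in edgeR, 1 member had an unadjusted p under 0.05, and DESeq2 called 0 members. The nuclear median was 0.06 and the mitochondrial one -0.26, with all 13 mitochondrial estimates below 0. The 4 vehicle groups against untreated medium, the test of ethanol alone, likewise gave 0 calls among the members and 0% among all genes in edgeR, with 2 members at an unadjusted p under 0.05 and 0 called by DESeq2.

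Both hormones were given at 0.01 µM, which allows a comparison at matched dose. None of the 95 members passed in the test of the difference of vehicle-corrected effects, while 4.98% of all genes did, 9 members had an unadjusted p under 0.05, and DESeq2 called 0. The smallest adjusted p belonged to UQCRC2, with dexamethasone minus hydrocortisone at -0.30 and a 95% interval of -0.50 to -0.10 (edgeR, adjusted p = 0.0678), and it passed without hydrocortisone replicate 4 or without dexamethasone vehicle replicate 2. Without dexamethasone replicate 3, ATP5F1D passed. For ATP5PB the difference was -0.24 (-0.47 to -0.01, 0.267) and for ATP5F1B -0.18 (-0.37 to 0.00, 0.313). In levels, UQCRC2 had 54.6 ± 2.37 CPM under 0.01 µM dexamethasone and 65.9 ± 4.14 CPM under 0.01 µM hydrocortisone (SD, n = 3 each).

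The higher dose of hydrocortisone differed from the lower one in 1 member (1.05%, against 4.09% of all genes). ATP5F1D had an effect of -0.54 at 10 µM and 0.20 at 0.01 µM, a difference of -0.74 ± 0.20 (edgeR, adjusted p = 0.025). It did not pass without replicate 4 of 10 µM or replicate 1 of its vehicle, without replicates 2 or 3 of 0.01 µM, or without replicates 1 or 2 of that vehicle, each left out singly.

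After 3 days without hormone, members were called for 1 of the 4 hormone doses. Against the 4 day 6 vehicle libraries, 0 members were called for 0.01 µM dexamethasone (0.0833% of all genes), for 10 µM hydrocortisone (0.892%) and for 0.01 µM hydrocortisone (0.0892%) in edgeR, with 3, 4 and 5 members at an unadjusted p under 0.05 in that order and 0 called by DESeq2 in each. The day 6 vehicles are single libraries of 4 groups, which are assumed here to vary like the other groups.

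Flasks that had received 1 µM dexamethasone held the day 6 calls. Of the 95 members 5 were lower (5.26%, against 10.2% of all genes and 5.04% in the lower direction). COX7B had 33.6, 38.0 and 39.6 CPM after 1 µM dexamethasone, against 40.8 to 51.9 CPM in the 4 vehicle libraries (-0.28 ± 0.07, edgeR adjusted p = 0.00374). UQCRC2 had 55.2, 54.7 and 54.9 CPM against 63.4 to 70.8 CPM, without overlap (-0.26 ± 0.07, 0.00556). The membrane anchor SDHC had 17.04 ± 1.05 CPM against 21.7 ± 1.51 CPM (SD, n = 3 and 4; -0.35 ± 0.10, edgeR adjusted p = 0.0241).

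The other calls on day 6 were ATP5MC1 (-0.30 ± 0.09, edgeR adjusted p = 0.0263), whose groups overlapped, and ATP5PB (-0.23 ± 0.08, 0.044), whose groups did not. Leaving out single libraries gave 2 to 5 calls. There were 2 without hormone replicate 2, without the 10 µM hydrocortisone vehicle or without the 0.01 µM hydrocortisone vehicle, 3 without hormone replicate 3 or 4, and UQCRC2 was called in each. COX7B, UQCRC2, ATP5MC1 and ATP5PB were called on both days, while SDHC had -0.28 (adjusted p = 0.0634) on day 3. Under the 16 other settings tried for day 6, UQCRC2 passed in 16, COX7B in 14, SDHC in 13, ATP5MC1 in 12 and ATP5PB in 6. ATP5F1B, at -0.26 on day 3, had 307, 278 and 304 CPM on day 6 against 285 to 344 CPM in vehicles and did not pass (-0.08, adjusted p = 0.508). SDHA likewise did not pass on day 6 (0.07, adjusted p = 0.724).

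**Figure D5:**
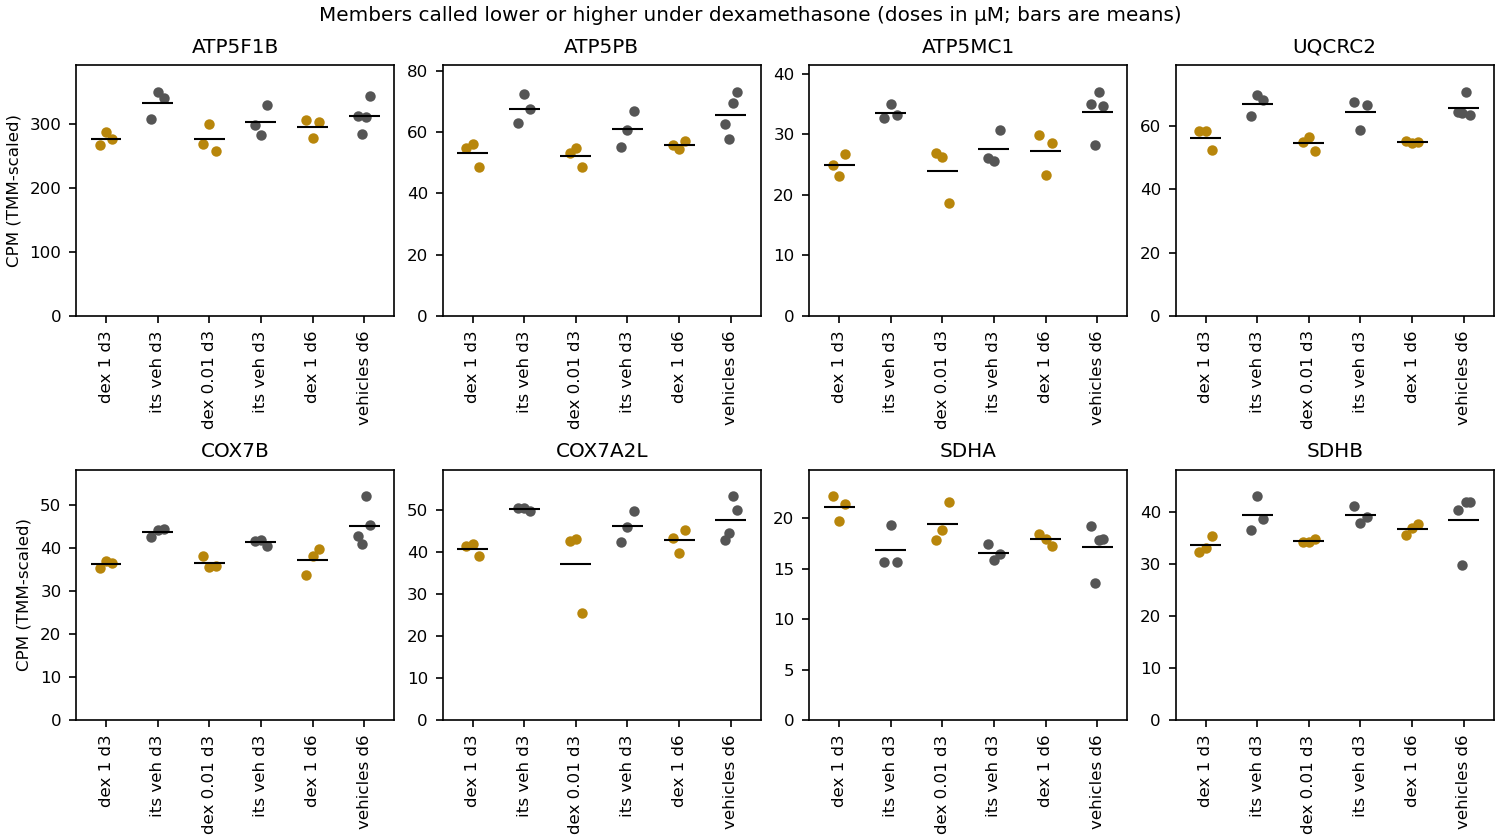
CPM of the scaled library, from 0, for 8 members called under dexamethasone, with 1 point per library and black bars for group means, for 1 µM and 0.01 µM dexamethasone on day 3 beside their own vehicles and 1 µM dexamethasone on day 6 beside the 4 day 6 vehicle libraries (hormone gold, vehicle grey). ATP5MC1 has 23.1 to 26.8 CPM under 1 µM dexamethasone on day 3 against 32.7 to 35.01 CPM in its vehicle.

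Change over the washout was tested by subtracting the day 3 effect from that on day 6, where on both days the 4 vehicle groups together served as control. For 1 µM dexamethasone 1 member passed (1.05%, against 1.69% of all genes), UQCRC1, with -0.43 ± 0.11 (edgeR, adjusted p = 0.0199). It did not pass without day 3 replicate 4, day 6 replicates 3 or 4, or the day 6 vehicle of 0.01 µM dexamethasone, each left out singly. For 10 µM hydrocortisone 2 passed (2.11%, against 6.97%), ATP5F1D with 0.67 ± 0.18 (0.0126) and ATP5F1B with 0.26 ± 0.08 (0.0389), and 0 passed without day 3 replicate 4 or without day 6 replicate 3 of the hormone. Under the 31 other settings tried ATP5F1D passed in 29 and ATP5F1B in 20. For 0.01 µM dexamethasone 0 passed in edgeR (6.54% of all genes did), 8 members had an unadjusted p under 0.05 and DESeq2 called 0. For none of COX7B, UQCRC2, ATP5MC1 and ATP5PB was a change over the washout of 1 µM dexamethasone called. The typical 95% interval of a nuclear member there reached 0.26 log2 units to either side. Loss of an effect near that size could therefore go uncalled.

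Vehicle flasks of day 6 against those of day 3 gave 0 calls among the members in edgeR (0.505% of all genes), with 11 at an unadjusted p under 0.05 and 0 called by DESeq2. All 13 mitochondrial estimates were below 0, with a median of -0.70 and the lowest at -0.87 for MT-ND4, while the nuclear median was 0.03. With the ribosomal RNA share as a covariate the mitochondrial median was -0.55. The ratio of mitochondrial to nuclear counts lay between 0.384 and 0.629 in the 4 day 6 vehicle libraries, against 0.392 to 1.37 in the 12 of day 3.

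Genes that build or feed the chain were followed as lists. Under 1 µM dexamethasone on day 3, 15 of 77 mitochondrial ribosomal proteins, which translate the 13 mitochondrial messages, were lower and 0 higher, with a median of -0.17. MRPL42 had 51.3 CPM against 70.3 CPM in vehicle (-0.45, edgeR adjusted p = 4.66e-05). Of 30 genes of mitochondrial DNA expression and replication 8 were lower and 1 higher (median -0.17). TFB2M, the transcription initiation factor of mitochondrial DNA, had 6.75 CPM against 11.5 CPM (-0.77, 1.39e-05), and PNPT1, an exonuclease of the organelle, -0.38 (0.00172).

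Among 14 carriers and electron shuttles 6 were lower and 1 higher (median -0.19). CYCS, the cytochrome c that links complexes III and IV, had 39.6 CPM against 54.9 CPM in vehicle (-0.47, edgeR adjusted p = 8.28e-04), SLC25A5, an exchanger of ADP and ATP, -0.38 (3.65e-04), and VDAC1, the outer membrane channel, -0.34 (5.67e-04). Of 50 assembly factors 7 were lower and 0 higher (median -0.07), ECSIT of complex I among them (-0.43, 0.00758). Of 24 genes of the citric acid cycle and pyruvate dehydrogenase 4 were lower and 2 higher (median -0.07). FH, the fumarase, was lower (-0.39, edgeR adjusted p = 8.18e-05) and PC, pyruvate carboxylase, which feeds the cycle, higher (0.65, 2.09e-04). These counts stand beside 10.3% higher and 12.3% lower calls over all genes.

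The nuclear regulators moved in both directions, with 2 of 11 higher and 2 lower. PPARGC1A, the coactivator PGC-1 alpha known to raise respiratory chain genes, had 5.02 ± 1.03 CPM under 1 µM dexamethasone and 0.239 ± 0.146 CPM in vehicle (SD, n = 3 each), a change of 4.42 ± 0.54 log2 units (edgeR, adjusted p = 1.46e-08). HIF1A, the oxygen-regulated factor, was higher (0.57, 4.62e-08), and the receptor gene NR3C1 itself lower (-0.49, 2.61e-05). PPARGC1B, the paralogue of PPARGC1A, had 0.426 ± 0.0888 CPM under 1 µM dexamethasone and 1.46 ± 0.449 CPM in vehicle (SD, n = 3 each) and was lower (-1.73 ± 0.34, edgeR adjusted p = 1.01e-04). It was also lower under 0.01 µM dexamethasone (-1.14 ± 0.34, edgeR adjusted p = 0.0182) and 10 µM hydrocortisone (-1.34 ± 0.33, 0.00319), and on day 6 after 1 µM dexamethasone its estimate was -0.25 ± 0.30 (edgeR adjusted p = 0.696). PPARGC1A was also higher under 0.01 µM dexamethasone (2.66 ± 0.54, edgeR adjusted p = 3.11e-04), under 10 µM hydrocortisone (2.78 ± 0.53, 1.41e-04) and on day 6 after 1 µM dexamethasone (2.49 ± 0.47, 1.95e-04). The higher PPARGC1A stood beside a nuclear member median of -0.12, -0.11, 0.02 and -0.09 in those 4 comparisons.

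The lists were read the same way at the other doses. Under 0.01 µM dexamethasone 15 of 77 mitochondrial ribosomal proteins were lower and 0 higher, along with 7 of 30 genes of mitochondrial DNA expression (0 higher), 2 of 14 carriers (1 higher), 3 of 50 assembly factors (0 higher), 0 of 24 citric acid cycle genes (2 higher) and 3 of 11 regulators (2 higher), where 7.84% of all genes were lower and 6.14% higher. Under 10 µM hydrocortisone 5 of 77 mitochondrial ribosomal proteins were lower and 0 higher, along with 1 of 30 (1 higher), 2 of 14 (1 higher), 1 of 50 (1 higher), 1 of 24 (0 higher) and 4 of 11 (2 higher) in the same order, where 7.51% of all genes were lower and 5.57% higher. TWNK, the mitochondrial DNA helicase, was lower there (-0.73, edgeR adjusted p = 2.95e-04). Under 0.01 µM hydrocortisone 0 genes of any list were called, as were 0% of all genes. On day 6 after 1 µM dexamethasone 4 of 77 mitochondrial ribosomal proteins were lower and 0 higher, along with 0 of 30 genes of mitochondrial DNA expression (0 higher), 0 of 14 carriers (1 higher), 1 of 50 assembly factors (0 higher), 1 of 24 citric acid cycle genes (0 higher) and 2 of 11 regulators (2 higher), where 5.04% of all genes were lower and 5.13% higher.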

How the data were processed

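Total RNA of 43 flasks was sequenced, and the deposited values are whole-number read counts per gene, not normalized. Per the submitters' processing notes, FastQC, STAR, Subread and featureCounts were used with GRCh38, with no version or strand setting stated, so a gene and one that overlaps it on either strand may share reads. Ensembl identifiers were matched to current symbols for 19978 genes and to GENCODE symbols for 70, and 4 stayed without. Every column was a labelled sample. Genes were filtered with filterByExpr (minimum count 10, minimum total 15, 16816 kept), scaled by TMM and fitted in edgeR 4.0.16 (R 4.3.3) with 17 group coefficients over 43 libraries, which leaves 26 residual degrees of freedom. Quasi-likelihood tests were adjusted by Benjamini-Hochberg over all 16816 genes, with calls at 0.05, and the code was tested on simulated data. DESeq2 1.42.0 was an alternative.

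Levels per kilobase used counts without the 12 nuclear ribosomal RNA genes, while CPM beside a fold change refers to scaled counts that include them and is smaller. Libraries held 7638840 to 24426600 counts. Libraries of 1 group differed beyond sampling noise in all 39 pairs. On day 3 the control of a hormone dose was its matched vehicle. On day 6 it was the average of 4 single vehicle libraries, which the day 6 comparisons share, and the day 3 vehicles are shared by the dose, matched-dose and washout contrasts. Named members are at most 8 called in each direction by smallest p, all called where fewer, and those that the comparisons turn on, of which ATP5PO, ATP5MC3 and UQCRC1 were chosen after their values were seen, as were the promoters shown. For 1 µM dexamethasone on day 3 more than 8 lower calls are named. The members and lists were chosen with earlier results of these data known. The values of 1 called member are not reported here.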

Additional observations from a re-analysis of the deposited data

Results flagged for a closer look

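Of the tests of a difference between 2 effects, 4 passed the threshold for a member. ATP5F1D, the delta subunit of ATP synthase, differed between the doses of hydrocortisone on day 3, with the effect at 10 µM minus that at 0.01 µM at -0.74 log2 units (edgeR, adjusted p = 0.025). Its effect also differed over the washout of 10 µM hydrocortisone, with day 6 minus day 3 at 0.67 (adjusted p = 0.0126). ATP5F1B had 329, 338 and 337 CPM on day 6 after 10 µM hydrocortisone, against 267, 287 and 271 CPM under it on day 3, and its vehicle-corrected effect changed by 0.26 (adjusted p = 0.0389). This change in ATP5F1B passed under 20 of the 31 other settings tried. UQCRC1 had 75.7, 66.8 and 69.3 CPM on day 6 after 1 µM dexamethasone, against 84.0, 86.9 and 90.5 CPM on day 3, and its effect changed by -0.43 (adjusted p = 0.0199). ATP5F1D was higher with a higher ribosomal RNA share within groups (0.05 log2 units per 10 percentage points), and the part of that share in its changes was not tested beyond the covariate fit.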

How the results depend on the processing

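Calls of single members were checked 500 times under other settings. In 396 they still passed in the same direction, in 104 they no longer passed and in 0 they reversed. Counts of called members moved by more than 1.5 times as follows, and the cause was not tested. Most counts here and in the next paragraph stand without the share of all genes called under the same setting. They show dependence on the processing and are not read as a result about the members. With ribosomal RNA genes removed, 10 µM hydrocortisone on day 3 gave 2. Without the 7 libraries above 75% ribosomal RNA, 0.01 µM dexamethasone gave 1, 10 µM hydrocortisone 3, 1 µM dexamethasone on day 6 8, the matched-dose comparison 1, the washout of 1 µM dexamethasone 0, of 0.01 µM dexamethasone 2 and of 10 µM hydrocortisone 1, and the ribosomal RNA share 5. With that share as a covariate, 0.01 µM dexamethasone gave 5 and 10 µM hydrocortisone 3, where 2144 and 2029 of all genes were called. DESeq2 gave 1 and 2 members for these comparisons, and fits on their own libraries 0 and 2, with 3 for 10 µM hydrocortisone on day 6. With untreated medium as control, 1 µM dexamethasone gave 8, 0.01 µM dexamethasone 11 and 10 µM hydrocortisone 7, and with all 12 vehicle libraries the lower dexamethasone dose gave 13 and 10 µM hydrocortisone 8. The covariate and the checks on the ribosomal RNA share were chosen after seeing the data.

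Leaving out single libraries gave 7 to 14 members for 1 µM dexamethasone on day 3, 2 to 4 for 0.01 µM dexamethasone, 0 to 3 for 10 µM hydrocortisone, 0 to 1 for its dose difference, 2 to 5 for 1 µM dexamethasone on day 6, 0 to 1 for the matched dose, 0 to 1, 0 to 2 and 0 to 3 for the washout of 1 µM dexamethasone, 0.01 µM dexamethasone and 10 µM hydrocortisone, and 14 to 28 for the ribosomal RNA share. Flasks of the same replicate number showed little correlation of their deviations (21 correlations from -0.081 to 0.1). With 3 libraries per group this cannot exclude a pairing. A fit with the replicate number as a block gave 17 members for 1 µM dexamethasone on day 3 and 4 on day 6.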
